A study of Mus musculus with 40 samples.

Results

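The fourth day of tetracycline (Tet) in ZHBTc4 mouse embryonic stem (ES) cells, from 72 to 96 hr, is described here by the 3 arrays labelled 96 hr set against the 3 arrays labelled 72 hr. These 6 arrays were chosen by title and array type from the 18 arrays of the late series, which holds 3 arrays at 0 hr and 3 at each daily time up to 120 hr, out of 40 arrays in the whole study. ZHBTc4 is a single male line in which both endogenous copies of Pou5f1 are disrupted and a Pou5f1 transgene is switched off by Tet. Every late array is of this line, and the hours count the time in Tet, with 0 hr before it was added. The treatment text on the labels of the late arrays describes a different line with a Tcl1 construct, so the titles, which name ZHBTc4, were followed, and Pou5f1 was read on the arrays themselves.

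Pou5f1 encodes Oct4, a transcription factor that keeps ES cells pluripotent, and ES cells that lose it turn into trophoblast, the lineage that forms the outer wall of the blastocyst and later much of the placenta. Trophoblast cells form a polarized epithelium, invade, take up nutrients for the embryo and secrete proteases and serpins. Whether each of these programs moves on a given day is a question that daily sampling can address.

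RNA of the cells was labelled with Cy3 and hybridized with Cy5-labelled Universal Mouse Reference RNA, a pool of cell lines, so each value below is the log2 ratio of Cy3 to Cy5 of a probe on an array, and a change is the mean at 96 hr minus the mean at 72 hr. On these 6 arrays the median Cy3 signal per gene probe ran from 651 to 728 scanner units, over a median local background of 367 to 376 and negative controls with medians of 489 to 506. Depending on the array, 16.3% to 22% of gene probes were no brighter than the 95th percentile of its negative controls. Across probes, which are not independent of each other, replicate 1 correlated less with the other arrays of its time (r of 0.975 and 0.978 at 72 hr, 0.978 and 0.976 at 96 hr) than replicates 2 and 3 with each other (0.993 and 0.991). Whether the replicates are separate cultures is not given, so p-values measure the spread between these arrays, which may be technical, and 3 arrays per time limit the precision.

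From 72 to 96 hr, with each symbol read from its brightest probe, the largest rises with a gene symbol were of periostin (Postn), gelsolin (Gsn) and the insulin-like growth factor binding protein Igfbp4, and the largest falls were of AF067063, the glutathione transferase Gsta4 and Zscan4c, a gene of cleavage-stage embryos and rare ES cells. Rising genes included 7 of 34 measured cytoskeleton and calcium-binding genes, 5 of 36 of epithelial keratins and junctions, 4 of 39 lysosomal genes and 6 of 43 nutrient and lipid transporters. Over the 20 settings tried, these counts ran from 6 to 9, 4 to 9, 3 to 5 and 3 to 8. Of 36 measured pluripotency genes named by accession, none rose or fell. Nanog and Dppa2 fell, 2 of 6 further ones named through tables of the study. The fall of Nanog did not hold under every choice of processing, as given below. Of all genes named by accession, 1.62% rose. The lists and their members were chosen with earlier results of these data known, and no list was tested against other genes. A gene was called when its adjusted p by limma (two-sided, adjusted over all gene probes fitted) was at most 0.05 and its change at least 1.5-fold. Of 20727 genes tested, 279 were called (1.35%), 229 of them rising (1.1%) and 50 falling (0.241%). The median rise among them was 0.70 and the median fall -0.69 on the log2 scale, so most changes were modest, and 17 rises and 5 falls reached 2-fold.

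**Figure D1:**
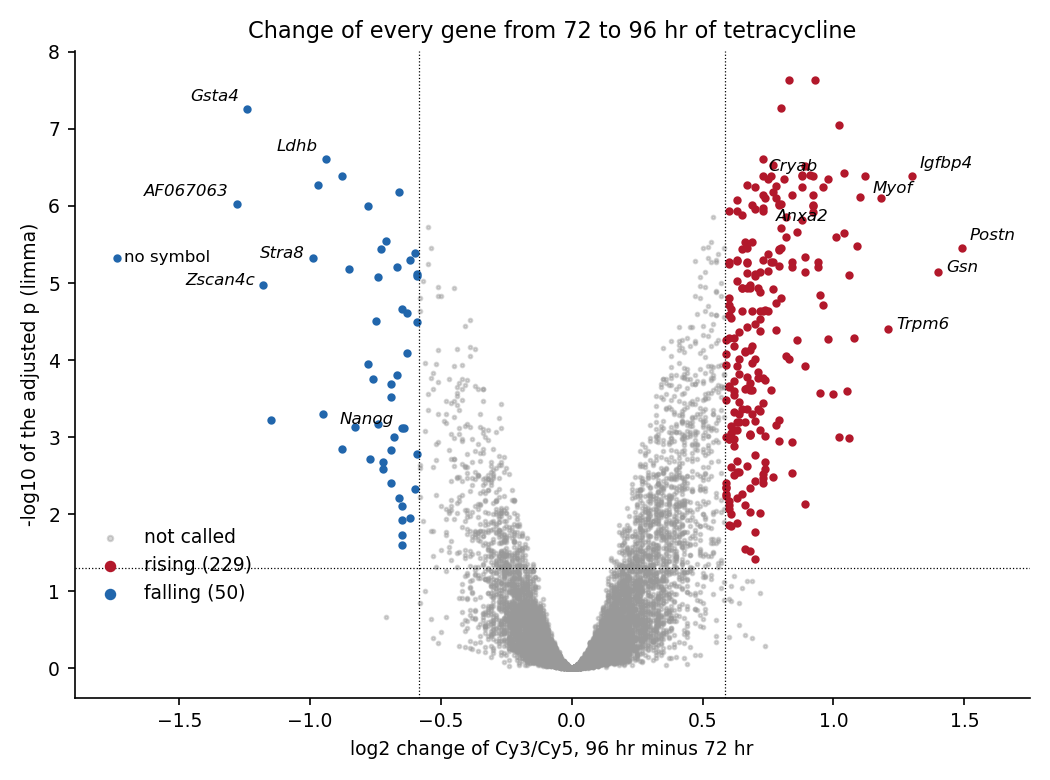
Change of every gene from 72 to 96 hr (x axis, log2) against the negative log10 of its adjusted p by limma (y axis), 1 point per gene, with dotted lines at the call limits. Rising genes (229, red) outnumber falling genes (50, blue), with Postn farthest to the right and a probe without a symbol farthest to the left.

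For all 279 called genes, the measured arrays of 96 hr lay on 1 side of all those of 72 hr, a separation that 5197 of 20719 genes showed (25.1%). None of the 279 was read from a saturated spot or lay below the negative controls at both times. A symbol was at hand for 218 of them, 188 through the accession of the probe and 30 through tables of the study, which favour genes that respond, and 61 had none. In bulk RNA, fewer cells of a type and less RNA per cell cannot be told apart. When background was not subtracted, the count of called genes was 93, with 79 rising and 14 falling. Of the called genes, 88 were also called in that setting. Among the 86 genes named by rule, it ended 23 calls, those of AF067063, Zscan4c, Stra8, Cidea, Gm6763, Rab26os, Nanog, Cxcl10 and Col18a1 among the falls and Slc1a1, Islr2, Slc2a1, Slc38a1, Abcb1b, Vldlr, Mmp14, Htra1, Flt1, Acta2, Sesn1, Rb1, Tgfbr2 and Atf3 among the rises.

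Postn, a secreted protein of the extracellular matrix, read -0.99, -0.72 and -0.82 on the 72 hr arrays and 0.52, 0.73 and 0.67 on the 96 hr arrays. All 96 hr arrays were above all 72 hr arrays, with a wide gap. The change was 1.49 (SE 0.14, limma adjusted p 3.52e-06), a 2.80-fold rise. Gsn, which severs and caps actin filaments in the presence of calcium, read -0.87 and -0.95 at 72 hr, where the spot on replicate 1 was set aside as an outlier, and 0.48, 0.53 and 0.47 at 96 hr. The arrays of each time sat close together and the times did not overlap. Its change of 1.40 (SE 0.14, limma adjusted p 7.18e-06) rests on 5 arrays in place of 6. Igfbp4, a secreted binder of insulin-like growth factors, read -1.71, -1.88 and -1.82 at 72 hr, then -0.47, -0.52 and -0.53 at 96 hr. Again every 96 hr array was the higher, and the change was 1.30 (SE 0.08, limma adjusted p 4.04e-07), with a 95% interval of 1.12 to 1.48.

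The next rises were of genes with varied roles. Trpm6, a channel for magnesium, read 1.31, 1.77 and 1.66 at 72 hr, then 2.64, 2.84 and 2.89 at 96 hr, without overlap, a rise of 1.21. Myoferlin (Myof), a ferlin of the plasma membrane, read -0.42, -0.22 and -0.36 and then 0.74, 0.81 and 0.80, a rise of 1.12, also without overlap. Snap91, an adaptor of clathrin coats, rose by 1.08, the riboflavin transporter Slc52a3 by 1.10 and the glutamate transporter Slc1a1 by 1.06. Serpinb9g, of a cluster of serpins expressed in the mouse placenta, rose by 1.06, from 2.08, 2.36 and 2.15 at 72 hr to 2.99, 3.37 and 3.39 at 96 hr. Its lowest 96 hr array was above its highest 72 hr array. The kinase Mark1, which acts on microtubule-associated proteins, and Oaf both rose by 1.04, and Islr2, a membrane protein with leucine-rich repeats, rose by 1.09.

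**Figure D2:**
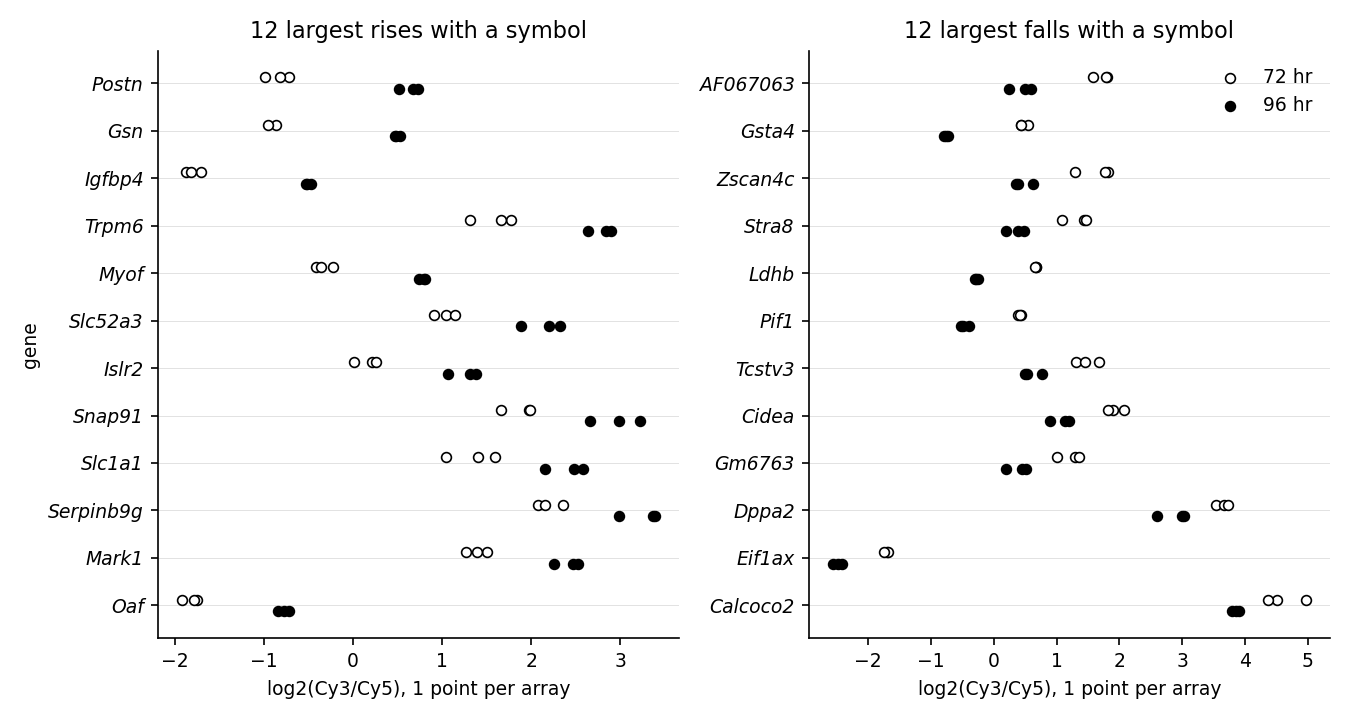
The log2 ratio of Cy3 to Cy5 on each 72 hr array (open) and each 96 hr array (filled) for the 12 genes with a symbol that rose most (left) and the 12 that fell most (right), 1 point per array. In every gene shown, the measured arrays of the times do not overlap.

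Among the falls, AF067063 read 1.58, 1.80 and 1.79 at 72 hr, then 0.25, 0.59 and 0.50 at 96 hr. The 96 hr arrays were all lower, by more than the spread within either time, and the change was -1.28 (SE 0.11, limma adjusted p 9.38e-07). Gsta4, which conjugates glutathione to products of lipid peroxidation, read 0.44, 0.55 and 0.44 and then -0.79, -0.76 and -0.73. The arrays of each time lay in a narrow band, and the change was -1.24 (SE 0.07, limma adjusted p 5.44e-08). Zscan4c read 1.30, 1.81 and 1.77 at 72 hr, then 0.35, 0.39 and 0.62 at 96 hr, with replicate 1 the lowest at both times and no overlap, a change of -1.18. Stra8, known from germ cells that enter meiosis, fell by 0.99, from 1.09, 1.44 and 1.47 to 0.19, 0.38 and 0.48. Tcstv3, another gene of cleavage-stage embryos, has a pair of called probes. The brighter one read 1.67, 1.31 and 1.45 and then 0.53, 0.76 and 0.49, a change of -0.88, and the other 2.97, 2.92 and 2.97 and then 1.26, 1.20 and 1.20, a change of -1.73 (SE 0.08, limma adjusted p 6.75e-09). Both probes fell without overlap, and by different amounts.

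Ldhb, the heart-type subunit of lactate dehydrogenase, fell by 0.94, with 0.67, 0.67 and 0.66 at 72 hr, then -0.28, -0.30 and -0.25 at 96 hr. The helicase gene Pif1 fell by 0.88, from 0.39, 0.44 and 0.41 to -0.52, -0.49 and -0.39. In these genes the replicates nearly coincided. Cidea, a protein of lipid droplets, changed by -0.85, Gm6763 by -0.83, the initiation factor gene Eif1ax by -0.78 and Calcoco2, an autophagy receptor, by -0.77. The largest fall of all was on a probe without a symbol, Z308677-1, chosen after its values were seen, with 2.33, 2.70 and 2.58 at 72 hr, then 0.61, 0.78 and 1.01 at 96 hr, a change of -1.74 (SE 0.17, limma adjusted p 4.79e-06).

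The 31 gene lists were counted over genes named by the accession of their probe, of which 10121 were tested, with 164 rising (1.62%) and 24 falling (0.237%) and a median change of 0.01. The lists, chosen with earlier results of these data known, hold 936 different genes of this kind, 36 of them rising and 1 falling. At least 1 such member was called in 13 lists. Over the 20 settings tried, the median of all genes stayed between -0.013 and 0.010.

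Cytoskeleton and calcium-binding genes had the highest list median, except without replicate 1 of 96 hr (0.313, against 0.320 for epithelial keratins and junctions) and without replicate 1 of both times (0.275 against 0.287). Of 34 measured, 7 rose and none fell, and the median change was 0.29, positive under every setting (0.224 to 0.316). Relative to the 72 hr mean of each member, the list median was 0.25, 0.34 and 0.31 on the 96 hr arrays. The 72 hr arrays stood at -0.02, 0.03 and -0.01, so the times did not overlap. Annexin proteins bind membranes when calcium is present, and of 12 annexin genes measured on the array 4 rose and none fell, a family picked after its values were seen. Anxa2 read -1.13, -1.01 and -1.0 at 72 hr, then -0.17, 0.01 and 0.04 at 96 hr, a change of 1.01 (SE 0.09, limma adjusted p 2.51e-06). Anxa1 read -0.42, -0.33 and -0.61 and then 0.51, 0.52 and 0.37, a change of 0.92 (SE 0.08, limma adjusted p 9.77e-07). In both genes every 96 hr array was above every 72 hr array. S100a6, a small calcium-binding protein that pairs with annexins, rose by 0.92, from -2.21, -2.16 and -2.20 to -1.23, -1.29 and -1.30. It was the 1 rising gene of 12 measured S100 genes, and none fell. Gsn, the actin-severing protein described above, had the largest rise of the list. Acta2, smooth muscle actin, named through the tables of the study, also rose, by 0.86.

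The list of epithelial keratins and junctions had 5 of 36 measured genes rising, none falling and 33 above zero, and a median of 0.23 (0.173 to 0.320 over the settings). The list median on the 96 hr arrays was 0.20, 0.32 and 0.30, against -0.06, 0.01 and 0.03 on the 72 hr arrays. The rising members given here are membrane proteins or their scaffolds at the borders of epithelial cells. Tmprss2, a membrane-bound serine protease, read 2.08, 2.35 and 2.09 at 72 hr, then 2.97, 3.26 and 3.29 at 96 hr, a rise of 1.00. Tjp3, a scaffold of tight junctions, read 1.39, 1.63 and 1.53 and then 2.31, 2.45 and 2.44, a rise of 0.88 (SE 0.08, limma adjusted p 1.5e-06). Neither gene had overlapping arrays. The polarity protein gene Crb3 rose by 0.72 and the membrane protease gene St14 by 0.69. Scaling the arrays to a common spread ended the call of Crb3. Krt19, a keratin of simple epithelia, changed by 0.37 (limma adjusted p 0.00675), below 1.5-fold, and was called at 0.61 when Cy3 was used alone. Its partner Krt18 was saturated on all arrays of both times, so no fold is given, and no probe was named Krt8 by accession or by the tables of the study, so it may be among the 9472 probes without a symbol.

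Lysosomal proteins had a median of 0.22 (0.179 to 0.249 over the settings), with 4 of 39 measured genes rising, none falling and 33 above zero. The 96 hr arrays had list medians of 0.19, 0.26 and 0.24, above the -0.07, 0.06 and 0.01 of the 72 hr arrays. Legumain (Lgmn), an endopeptidase of the lysosome, read -0.23, -0.03 and -0.08 at 72 hr, then 0.74, 0.86 and 0.71 at 96 hr, a rise of 0.88 (SE 0.07, limma adjusted p 5.71e-07). The cathepsin gene Ctsz read -1.45, -1.28 and -1.37 and then -0.73, -0.65 and -0.73, a rise of 0.67. Both genes had times that did not overlap. Cd63, a tetraspanin of late endosomes, rose by 0.69.

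**Figure D3:**
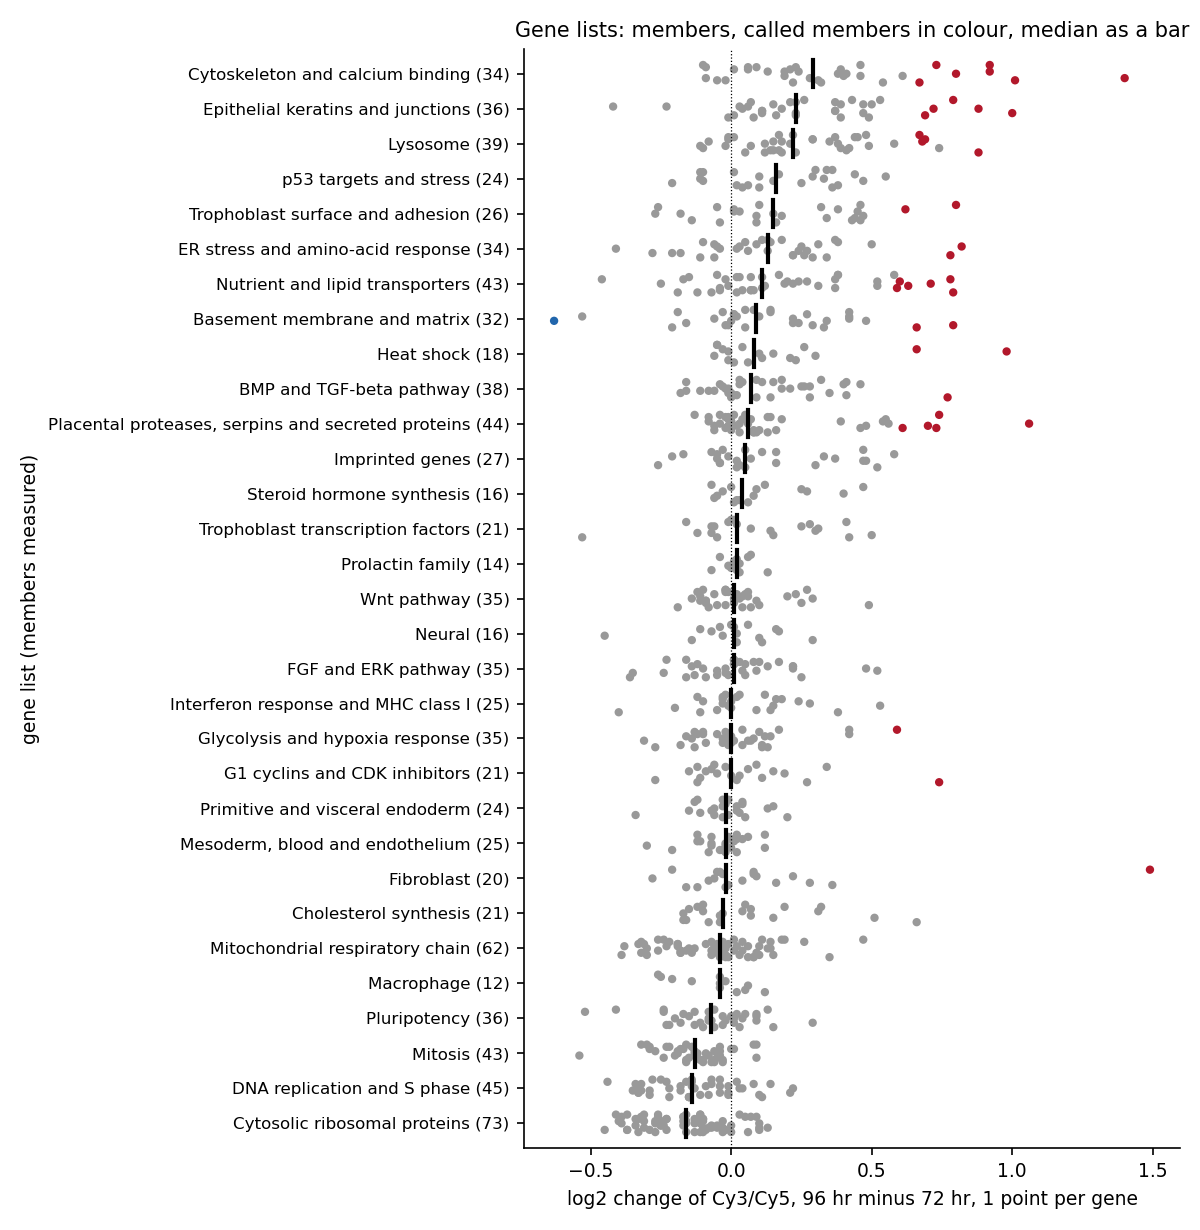
Change of each member of the 31 gene lists from 72 to 96 hr (x axis, log2, 1 point per gene) with the list median as a bar. Red points are called rising, blue called falling and grey not called, and the cytoskeleton and calcium-binding list stands at the top with a median of 0.29 and the ribosomal protein list at the bottom with -0.16.

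Nutrient and lipid transporters included 6 rising genes of 43 measured and none falling, with a median of 0.11 (0.066 to 0.161 over the settings). The count of rising transporters ran from 3 to 8 over the settings. The multidrug exporter Abcb1b rose by 0.79, from -0.71, -0.34 and -0.47 at 72 hr to 0.15, 0.32 and 0.38 at 96 hr, and Vldlr, which takes up lipoproteins, rose by 0.78, from -2.29, -2.17 and -2.40 to -1.55, -1.49 and -1.47. Cy3 alone ended the call of Abcb1b. Slc5a6, a sodium-dependent carrier of biotin and pantothenate, rose by 0.71, with 1.66, 1.71 and 1.69 and then 2.36, 2.47 and 2.36. In these carriers each 96 hr array was above each 72 hr array. The lactate and pyruvate carrier Slc16a1 rose by 0.63, the glutamine carrier Slc38a1 by 0.60 and the glucose carrier Slc2a1 by 0.59, close to the fold limit of the call. The call of Slc16a1 ended without replicate 1 of 72 hr (0.53) and without replicate 2 of 96 hr (0.57). Slc2a1 lost its call without the same arrays (0.55 and 0.58). Both also lost it without replicate 1 of both times (0.56 each). Slc38a1 lost it without replicate 1 of 72 hr (0.54), replicate 2 of 96 hr (0.56) or replicate 3 of 96 hr (0.55). Scaling the arrays ended the calls of these last carriers as well. A regression on Cy5 bleaching ended those of Slc16a1 and Slc38a1. Agilent's own processed signals ended that of Slc2a1, and an F test that of Slc38a1. This F test took the larger of a probe's own error variance and an average over 500 probes of similar intensity.

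Placental proteases, serpins and secreted proteins had 5 rising genes of 44 measured, none falling and a median of 0.06 (0.019 to 0.090 over the settings). Besides Serpinb9g, the related Serpinb9b rose by 0.74, from 1.80, 1.5 and 1.37 at 72 hr to 2.45, 2.37 and 2.09 at 96 hr. The secreted protease gene Htra1 rose by 0.73, from -2.86, -2.73 and -2.70 to -2.01, -2.06 and -2.02. Neither overlapped between times. The membrane-type metalloprotease gene Mmp14 rose by 0.61. The call of Mmp14 ended with Agilent's own processed signals and with the F test. It also ended without replicate 2 of 72 hr (0.57), replicate 3 of 72 hr (0.57), replicate 1 of 96 hr (0.48) or replicate 1 of both times (0.54). Of 26 trophoblast surface and adhesion genes, with a median of 0.15 (0.033 to 0.237 over the settings), 2 rose and none fell. These are tissue factor (F3), which starts blood clotting, with a change of 0.80, and Flt1, a receptor of vascular endothelial growth factor, with 0.62. The call of Flt1 ended without replicate 2 of 72 hr (0.58) or replicate 1 of 96 hr (0.57).

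Basement membrane and matrix genes moved in both directions, with 2 rising and 1 falling of 32 measured and a median of 0.09 (0.033 to 0.191 over the settings). The laminin subunit gene Lamb2 rose by 0.79, from -1.79, -1.71 and -1.70 at 72 hr to -0.99, -0.90 and -0.94 at 96 hr. Fibronectin (Fn1), named through the tables of the study, rose by 0.84, from -2.58, -2.34 and -2.44 to -1.82, -1.47 and -1.53. Serpinh1, the chaperone of collagen, is also on the heat shock list and rose by 0.66. Its call ended without replicate 1 of 72 hr (0.55) or of both times (0.60). It also ended with the F test and after a regression on Cy5 bleaching. Col18a1, the collagen that gives rise to endostatin, went the other way, reading 0.04, 0.27 and 0.30 and then -0.44, -0.50 and -0.35, a fall of 0.63. Its call ended without replicate 3 of 72 hr (-0.58) and with Cy3 alone.

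Heat shock genes rose in 2 of 18 cases and none fell, with a median of 0.08 (0.009 to 0.130 over the settings). Besides Serpinh1, this was Cryab, a small heat shock protein, with 0.61, 0.66 and 0.65 at 72 hr, then 1.61, 1.57 and 1.67 at 96 hr. The arrays of each time nearly coincided, and the change was 0.98 (SE 0.07, limma adjusted p 4.46e-07). In the list of ER stress and amino-acid response, with a median of 0.13 (0.083 to 0.169), 2 of 34 genes rose and none fell. These are Atf3, a transcription factor induced by stress, with a change of 0.82, and Vldlr, which is also on the transporter list. Single members rose in 4 more lists. Rb1, which restrains entry into S phase, was the 1 rising gene of 21 in the list of G1 cyclins and CDK inhibitors, with 0.74 and a list median of 0 (-0.024 to 0.038). Tgfbr2, a receptor of TGF-beta, was the 1 of 38 in the BMP and TGF-beta list, with 0.77 and a median of 0.07 (0.010 to 0.138). Slc2a1 was the 1 of 35 in glycolysis and hypoxia response (median 0, from -0.019 to 0.064), and Postn the 1 of 20 in the fibroblast list (median -0.02, from -0.057 to 0.098).

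The remaining 18 lists had 0 members called by limma among 549 genes, of which 145 were at an unadjusted p under 0.05 (26.4%), against 22.8% of all genes named by accession. The F test also called 0 of them, with 94 at an unadjusted p under 0.05 (17.1%, against 14.8%). The difference between these shares was not tested. These 18 lists cover trophoblast transcription factors, prolactins, imprinted genes, pluripotency, primitive and visceral endoderm, mesoderm with blood and endothelium, macrophage, neural, p53 targets, DNA replication, mitosis, cholesterol synthesis, steroid synthesis, the FGF, Wnt and interferon lists, ribosomal proteins and the respiratory chain. Some other settings did call members. Up to 2 imprinted genes rose, and up to 1 gene in each of the p53, cholesterol, interferon and FGF lists. Up to 1 gene fell in each of the pluripotency, mitosis and FGF lists. The list medians of cytosolic ribosomal proteins (-0.16, from -0.186 to -0.138 over the settings, 10 of 73 members above zero), DNA replication (-0.14, from -0.198 to -0.087, 9 of 45) and mitosis (-0.13, from -0.172 to -0.071, 4 of 43) were the lowest and were negative under every setting, though without replicate 1 of 96 hr the respiratory chain (-0.087) and macrophage (-0.084) lists were below the mitosis list (-0.071). For ribosomal proteins the 96 hr arrays stood at -0.08, -0.22 and -0.22 against 0.07, -0.02 and -0.05 at 72 hr. For mitosis they stood at -0.22, -0.11 and -0.07 against -0.07, 0.07 and 0.01. In both lists each 96 hr array was below the 72 hr array of its number, though for mitosis the lowest 72 hr array equalled the highest 96 hr array. The 24 measured p53 target and stress genes had a median of 0.16 (0.093 to 0.208), and Sesn1, a sestrin named through the tables of the study, rose by 0.67, a call that ended without replicate 1 of 72 hr (0.57).

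Pou5f1 was low at both times, with 0.12, -0.09 and 0.06 at 72 hr, then -0.07, -0.04 and -0.02 at 96 hr, and its mean had been 2.12 at 0 hr and -0.07 at 24 hr. Its change over the fourth day was -0.08 (limma adjusted p 0.846). Nanog, named through the tables of the study, fell by 0.65, from 0.48, 0.90 and 0.98 to 0.04, 0.11 and 0.24. The times did not overlap, but replicate 1 of 72 hr was much lower than the others, and the call ended without replicate 3 of 72 hr (-0.55) and with Cy3 alone. Sox2 read 2.07, 2.2 and 2.29 and then 1.55, 1.82 and 1.61, a change of -0.52 (SE 0.09, limma adjusted p 0.002) that is below 1.5-fold. It was called without replicate 2 of 96 hr (-0.60) and when the arrays were scaled (-0.68). Dppa2, a chromatin protein of ES cells named through the tables, fell by 0.78, from 3.54, 3.67 and 3.73 to 2.60, 2.99 and 3.02. Zfp42, another ES cell gene, was level at 3.90, 3.80 and 3.85 and then 3.85, 3.87 and 3.86. None of the 36 pluripotency genes named by accession was called (median -0.07, from -0.142 to -0.016 over the settings), with 7 at an unadjusted p under 0.05 by limma. By the F test 0 were called and 4 were at that p.

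None of the 21 measured transcription factors of the trophoblast list was called by limma or by the F test. By these tests 8 and 7 were at an unadjusted p under 0.05. Their changes ran from -0.53 for Rhox9 to 0.50 for Msx2, both chosen after their values were seen. Gata2 read 2.83, 2.81 and 2.81 at 72 hr, then 3.13, 3.11 and 3.06 at 96 hr. These arrays did not overlap, but the change of 0.28 (SE 0.05, limma adjusted p 0.00221) is below 1.5-fold. Gata3 changed by 0.31 (limma adjusted p 0.0851), Hand1 by -0.05 and Cdx2 by -0.16, though the study's methods call its Cdx2 probe unresponsive. The endoderm factor Gata6 changed by -0.14, the imprinted RNA H19 by 0.11 and the imprinted CDK inhibitor Cdkn1c by 0.11, none of them called. Prl3d1, a marker of trophoblast giant cells, was likewise not among the named probes.

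As a check on the cells, markers of several cell types were read. Of 13 trophoblast markers with a probe, all were above the negative controls at these times, and 7 were called higher and none lower at 96 than at 0 hr. Of 9 ES cell markers, 8 were called lower at 96 than at 0 hr. From 72 to 96 hr no trophoblast marker and 1 ES cell marker (Nanog) was called. The 13 trophoblast markers include Krt18, saturated on all arrays of 72 and 96 hr, and Cdx2, whose probe the study's methods call unresponsive. Among 8 fibroblast markers, Postn was the 1 gene called. Their summed Cy3 signal was 4714, 5186 and 4887 at 72 hr and 5052, 5267 and 5745 at 96 hr, with Lum the brightest and Thy1 below the negative controls. The mean log2 ratio of these markers was -2.04, -2.10 and -2.15 and then -1.82, -1.91 and -2.0. Without Postn the mean of the other 7 was -2.19, -2.29 and -2.34 and then -2.16, -2.29 and -2.39, and the median change of all 8 was -0.03. No marker of primitive endoderm (9 with a probe), macrophages (4), blood and endothelium (5), mesoderm (3) or neural cells (5) was called. Among these, Sox7, Afp and Ttr of endoderm, Lyz2 of macrophages, and Tek and Tal1 of blood and endothelium were below the negative controls.

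The same call rule was applied to every daily step of the late series. It gave 1568 genes from 0 to 24 hr (7.57%), 702 from 24 to 48 hr (3.39%), 570 from 48 to 72 hr (2.75%), 279 from 72 to 96 hr and 119 from 96 to 120 hr (0.574%). Rising genes made up 82.1% of the calls from 72 to 96 hr, against 52.2%, 51.3%, 70.4% and 73.1% in the other steps in order of time. The differences between these counts and shares were not tested, and neighbouring steps share arrays. With Cy3 alone the counts were 2326, 841, 881, 385 and 203 in order of time. Without background correction the count from 72 to 96 hr was 93, and the counts of the other daily steps in that setting are not given here.

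**Figure D4:**
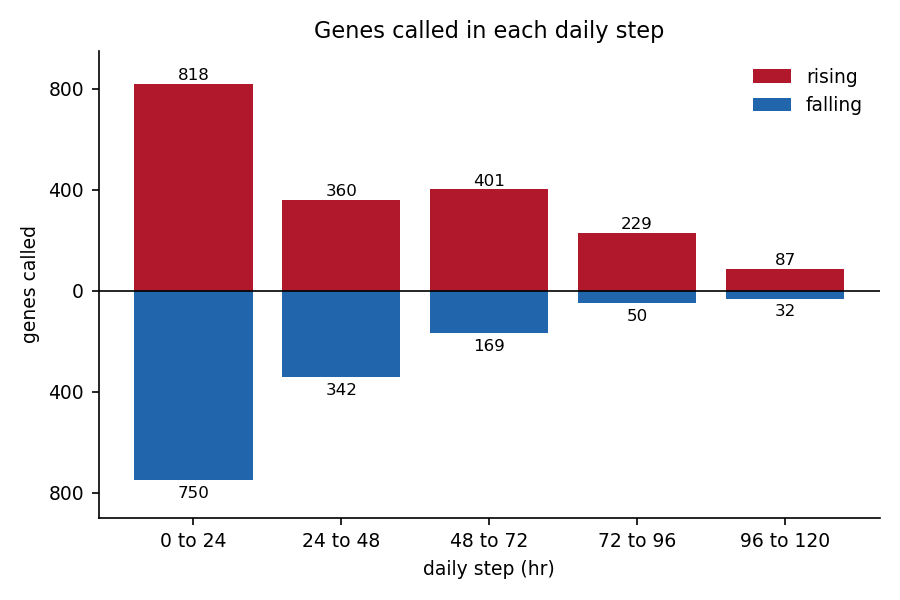
Genes called rising (red, upward) and falling (blue, downward) in each daily step of the late series, counted on the y axis. The step from 72 to 96 hr has 229 rising and 50 falling genes.

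The called genes were also read on arrays outside the comparison, in the same fit, so the estimate of each gene's spread is shared. Residuals of same-numbered arrays of 120 hr and of 72 or 96 hr correlated by 0.29 to 0.757, so this reading is not independent. The interval from 48 to 120 hr spans the fourth day but uses none of its arrays, and there 1695 genes rose (8.18%) and 876 fell (4.23%). Of the 229 genes that rose from 72 to 96 hr, 226 rose and none fell in that interval, with a median change of 1.82. Of the 50 that fell, 48 fell and none rose, with a median of -1.52. On the second day, from 24 to 48 hr, 360 genes of the array rose (1.74%) and 342 fell (1.65%). The genes that rose on the fourth day had risen in 38 cases and fallen in 9 on that second day (16.6% and 3.93%), and the genes that fell on the fourth day had risen in 16 cases and fallen in 3 (32% and 6%).

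Means over the course show such rises and falls. In the order 24, 48, 72, 96 and 120 hr, AF067063 stood at 1.24, 2.33, 1.73, 0.45 and -0.06. Pif1 stood at 0.04, 0.75, 0.41, -0.47 and -0.51. Both peaked at 48 hr and ended below their level of 24 hr. Cxcl10, an interferon-induced chemokine that fell by 0.63 on the fourth day, stood at -2.29, -0.61, -0.42, -1.05 and -1.92, and the call of its fall ended with Cy3 alone. Other falling genes had declined earlier too, such as Ldhb, which stood at 2.70, 2.33, 0.66, -0.28 and -0.33. Rising genes such as Gsn climbed from -3.84 through -2.74, -0.91 and 0.49 to 1.25. Serpinb9g was flat until 48 hr, at 0.00 and 0.07, then stood at 2.19, 3.25 and 4.03.

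**Figure D5:**
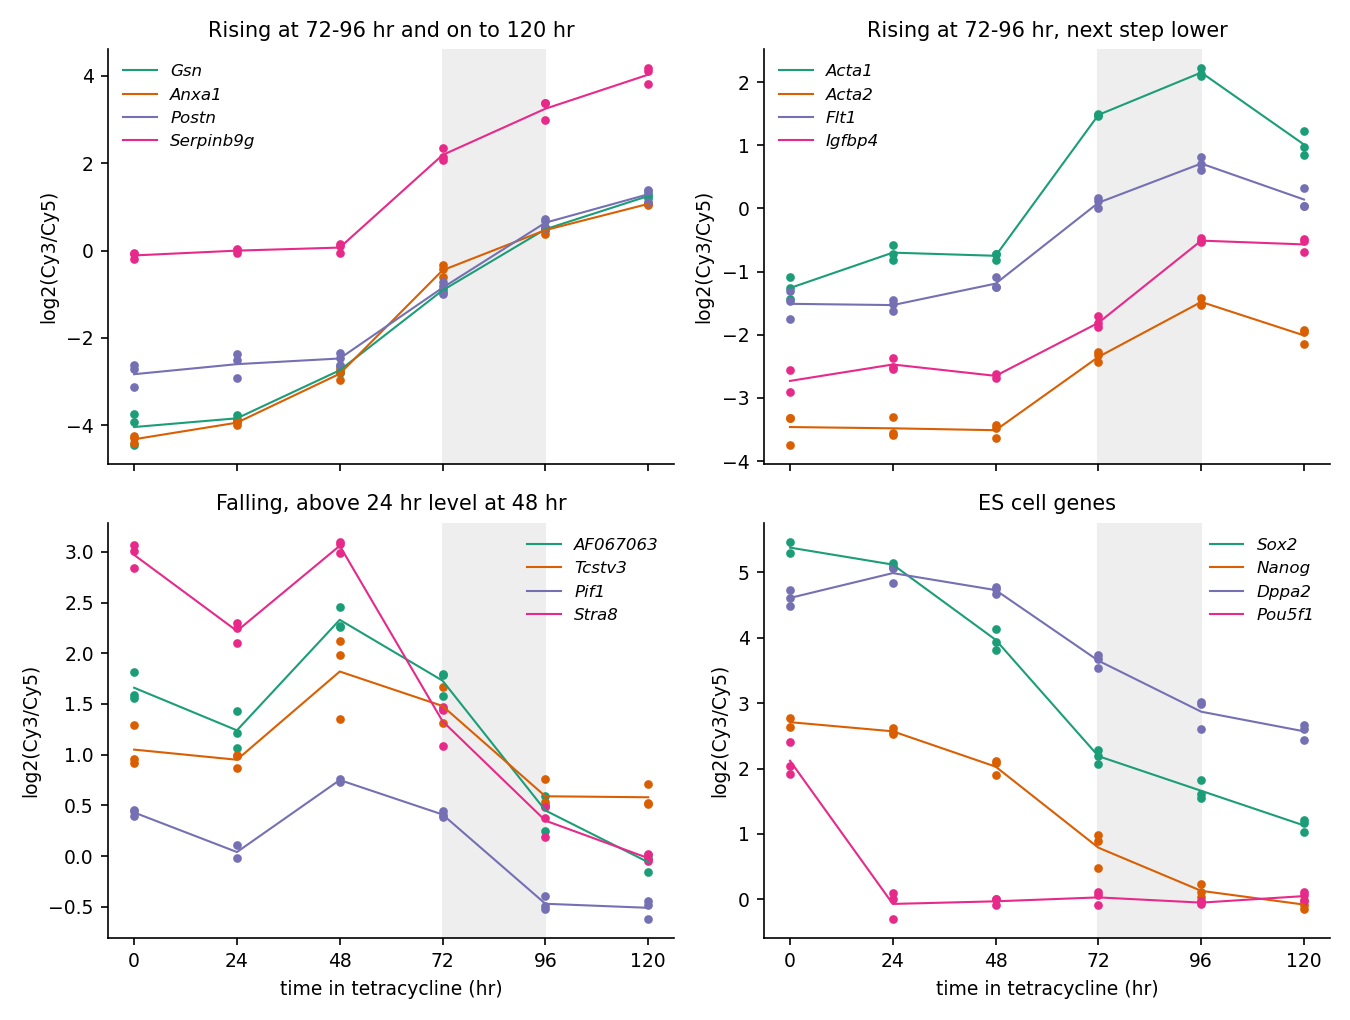
Log2 ratio of Cy3 to Cy5 over the hours in Tet for 16 genes in 4 panels, with 1 point per array and a line through the means of 3 arrays, and with the interval from 72 to 96 hr shaded. Gsn, Anxa1, Postn and Serpinb9g go on upward to 120 hr, Acta1, Acta2, Flt1 and Igfbp4 do not, and AF067063, Tcstv3, Pif1 and Stra8 are higher at 48 than at 24 hr.

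The step from 72 to 96 hr was tested against the steps on either side and against the second day, gene by gene. Against the next step, 34 genes differed (0.164%), 10 with the step from 96 to 120 hr above and 24 with it below that from 72 to 96 hr. This count moved with single arrays, to 21 and 19 without replicates 1 and 2 of 72 hr and to 17 and 12 without replicates 2 and 3 of 96 hr. It was 16 without replicate 1 of both times, 9 after a regression on Cy5 bleaching and 19 without background correction. The largest difference with a symbol was that of Acta1, skeletal muscle actin, which read 1.48, 1.5 and 1.47 at 72 hr, 2.22, 2.1 and 2.13 at 96 hr, then 1.23, 0.97 and 0.84 at 120 hr. It rose by 0.67 and then fell by 1.14, so that every 120 hr array was below every 72 hr array, and the steps differed by -1.80 (SE 0.16, limma adjusted p 6.76e-05). Scaling the arrays ended the call of its rise. Acta2 read -2.28, -2.32 and -2.43, then -1.51, -1.41 and -1.53, then stood at a mean of -2.01 at 120 hr, and its steps differed by -1.39 (SE 0.19, limma adjusted p 0.00255). Igfbp4 rose by 1.30 and then changed by -0.06, a difference of -1.36, and Flt1 rose by 0.62 and then changed by -0.57, a difference of -1.19. The differences of Acta1, Acta2 and Igfbp4 were called in 12 of 12 alternatives and that of Flt1 in 8 of 12, without replicate 1 or 3 of 96 hr among those that ended it. Over the alternatives the difference of Acta2 ran from -1.49 to -0.91.

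These 4 genes, the ones that rose on the fourth day and whose next step lay farthest below it, are shown by the 250 bases before their start sites. Acta1 fell in that next step, while Igfbp4 stayed near its level of 96 hr. The sequences are those of RefSeq on build GRCm38.p6, read 5′ to 3′ on the strand of the gene. Acta1 is at chr8:123894776-123895025 (minus strand), Acta2 at chr19:34255374-34255623 (minus), Igfbp4 at chr11:99040994-99041243 (plus) and Flt1 at chr5:147726012-147726261 (minus). Capitals mark matches on either strand to the short motifs of 4 factor families, spelled out after the sequences, or to the CArG box bound by serum response factor, which is CC, then 6 bases each A or T, then GG. A match describes the letters and does not show binding.
Acta1: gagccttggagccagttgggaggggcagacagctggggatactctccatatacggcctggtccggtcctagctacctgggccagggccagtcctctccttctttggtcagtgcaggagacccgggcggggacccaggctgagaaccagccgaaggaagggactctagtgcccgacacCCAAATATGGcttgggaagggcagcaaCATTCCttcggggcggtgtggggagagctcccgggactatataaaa
Acta2: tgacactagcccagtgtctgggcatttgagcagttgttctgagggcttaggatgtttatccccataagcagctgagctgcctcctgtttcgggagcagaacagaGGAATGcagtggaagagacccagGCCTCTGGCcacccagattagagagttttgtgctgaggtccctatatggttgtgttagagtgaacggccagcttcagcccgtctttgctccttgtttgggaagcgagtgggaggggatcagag
Igfbp4: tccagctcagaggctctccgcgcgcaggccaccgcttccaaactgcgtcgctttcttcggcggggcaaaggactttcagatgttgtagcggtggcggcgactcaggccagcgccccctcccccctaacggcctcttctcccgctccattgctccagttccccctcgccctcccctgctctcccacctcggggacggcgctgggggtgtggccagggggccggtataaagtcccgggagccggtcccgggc
Flt1: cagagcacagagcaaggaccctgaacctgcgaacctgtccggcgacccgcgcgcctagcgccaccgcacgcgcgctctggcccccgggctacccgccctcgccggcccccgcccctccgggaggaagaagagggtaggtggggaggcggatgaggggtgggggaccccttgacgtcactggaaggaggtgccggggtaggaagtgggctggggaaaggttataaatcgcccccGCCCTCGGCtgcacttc

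The Acta1 promoter holds a CArG box at -73 and the TEAD letters at -46, that of Acta2 the TEAD letters at -146 and the AP-2 letters at -123, and that of Flt1 the AP-2 letters at -17. The Igfbp4 window holds none of these letters. Stretches 1 letter off a CArG box, which are not capitalized, number 2 in Acta1, 2 in Acta2 and 0 in Igfbp4 and Flt1, and 17.8% of all promoters hold at least 1. The TEAD letters, GGAATG, occur in 12.6% of 27025 promoters of this length on either strand. The AP-2 letters, GCCNNNGGC, occur in 13.5% of these promoters. For AP-1 the letters searched were TGANTCA, found in 6.85% of all promoters. For GATA factors they were AGATAA, found in 10.2%, and a CArG box occurs in 1.41%. The 8911 genes of the array with a symbol and a promoter hold the AP-2 letters in 18.4% of cases, against 41 of the 154 rising genes with a promoter (26.6%) and 2 of the 28 falling genes (7.14%). For the TEAD letters these shares are 11%, 14.3% and 10.7%, and for the GATA letters 7.44%, 4.55% and 7.14%. The AP-1 letters occur in 5.9%, 5.19% and 14.3%, and a CArG box in 1.3%, 1.3% and 0%, in the same order. None of these shares was tested.

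Against the step from 48 to 72 hr, 180 genes differed (0.869%), 79 with the fourth day above and 101 with it below. The count was 107 without replicate 2 of 72 hr, 119 without replicate 1 of both times, 37 after a regression on Cy5 bleaching and 64 without background correction. Slco4a1, an organic anion transporter, rose from 1.96, 2.18 and 2.02 to 2.95, 3.03 and 2.95 on the fourth day, by 0.92, after a rise of 2.62 on the day before. Anxa1 had likewise risen by 2.37 on that day, Acta1 by 2.23 and Krt19 by 2.17, so that the fourth day lay below the preceding one by 1.70 for Slco4a1 and 1.45 for Anxa1 in size. The genes named in the other direction had fallen on the third day. The alkaline phosphatase gene Alpl fell by 1.17 from 48 to 72 hr and then changed by 0.24, and Gli1, a target of hedgehog signalling, fell by 1.62 and then changed by -0.32. Asb9 fell by 1.43 and then changed by -0.03, a difference whose call ended without background correction. Nid2, a nidogen of basement membranes, and Tcea3, an elongation factor, fell by 0.99 and 1.09 and then changed by 0.29 and 0.20.

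Against the step from 24 to 48 hr, which shares no array with the fourth day, 865 genes differed (4.18%), 534 with the fourth day above and 331 with it below. Without background correction the count was 306. Among them were 98 of the 229 rising genes and 37 of the 50 falling genes. Hmgn5, a nucleosome-binding protein, rose by 2.53 on the second day and changed by -0.48 on the fourth, the widest difference with a symbol at -3.01 (SE 0.11, limma adjusted p 1.42e-10). Fgfbp1, a secreted binder of fibroblast growth factors, rose by 2.02 on the second day and then changed by -0.36 on the fourth, and it was called falling there when the arrays were scaled (-0.59) or Cy3 was used alone (-0.60). Some genes had fallen on the second day and changed little on the fourth. Ooep, an oocyte protein, fell by 2.32 on the second day and changed by -0.08 on the fourth, and Morc1, of the germ line, fell by 2.22 and then changed by -0.10.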

How the data were processed

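The scanner files hold intensity values per spot, the mean signal of Cy3 and Cy5 with local background, made and deposited by the authors with Agilent Feature Extraction, without background subtraction in the columns used. A table that the authors deposited as log10 values, at the level of Cy3, served as an alternative only. In R 4.3.3 with limma 3.58.1 and the package data.table (version 1.17.8), background was corrected by normexp (offset 50) and Cy3 and Cy5 were balanced by loess within each array, with control spots given no weight. Outlier spots were set to missing and saturated spots kept. One linear model with a mean per time was fitted by limma to all 18 late arrays, so that all times share the estimate of spread, and p-values were adjusted by Benjamini and Hochberg over 21052 gene probes. Each symbol is represented by its probe of highest mean intensity.

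Residuals of same-numbered arrays at 72 and 96 hr correlated by 0.647, 0.266 and 0.377 across probes. Replicate 2 of 72 hr correlated more with replicate 3 of 96 hr (0.462), and replicate 3 of 72 hr by 0.312 with replicate 2 of 96 hr. Over all times, 28 of 45 same-numbered pairs were above 0.1, with a mean of 0.156 and a range of -0.431 to 0.757. Since each pair of 72 and 96 hr was above 0.1, the replicate numbers of the labels were taken as a possible pairing, and a fit with replicate as a block was run as an alternative. The 31 gene lists and the members were chosen with earlier results of these data known. Named were the 12 called genes with a symbol that rose most and the 12 that fell most, every called list member where a list has at most 6 and otherwise its 4 largest, 15 genes fixed by name, and 5 genes per direction in each test between steps, less a few that are not reported here. Tried as alternatives were other background, scaling and channel choices, Agilent's processed signals, the authors' table and a regression on Cy5 bleaching. An F test was also tried, with the larger of a probe's own error variance and an average over 500 probes of similar intensity. The study's methods use this rule for the error variance but name no F test. Further alternatives were dim probes left out, every probe counted, a 2-fold limit and each array left out. The code was tested on simulated data. In a value table of the paper's supplement, used only for names, the columns of the fourth day are headed 90 hr, and the 96 hr of the sample labels was used. Promoters were read in Python 3.11.15 with pandas 2.3.3, and figures drawn with matplotlib 3.10.9.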

Additional observations from a re-analysis of the deposited data

Results flagged for a closer look

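Each gene below was singled out because its change from 72 to 96 hr differed from its change in another daily step, by a limma contrast of the steps over the 18 late arrays. The steps are neighbours that share arrays, except the step from 24 to 48 hr, and the contrast takes the shared arrays into account.

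Against the step from 24 to 48 hr, 865 genes differed. The fourth day lay below the second for Hmgn5 (-3.01), Fgfbp1 (-2.38), AF067063 (-2.37) and Cxcl10 (-2.31), all of which had risen on the second day. It lay above the second day for Ooep (2.24), Morc1 (2.12), Ctnnal1 (1.86) and Amn (1.81), all of which had fallen on that day. Amn, a partner of cubilin in endocytosis, stood at 2.30 at 24 hr and at 0.47, 0.31 and 0.28 at 48, 72 and 96 hr, and Ctnnal1, an alpha-catenin-like protein, at 2.30, 0.66, 0.44 and 0.65. Krt18 also passed this test but was saturated on all arrays of 72 and 96 hr, so its value is left out. The differences of the genes in this paragraph were called in 12 of 12 alternatives. Their sizes varied, down to -0.70 for Cxcl10, -1.18 for AF067063, 1.01 for Ooep and 0.93 for Morc1.

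Against the step from 48 to 72 hr, 180 genes differed. The fourth day lay below for Krt19 (-1.80), Slco4a1 (-1.70), Hmgn5 (-1.62), Acta1 (-1.56) and Anxa1 (-1.45). It lay above for Alpl (1.41), Asb9 (1.40), Gli1 (1.3), Tcea3 (1.29) and Nid2 (1.28). A regression on Cy5 bleaching ended the call of Gli1, the lack of background correction that of Asb9, and the others were called in 12 of 12 alternatives. Over these the difference of Acta1 ran from -1.62 to -0.93 and that of Alpl from 1.16 to 2.15.

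Against the step from 96 to 120 hr, 34 genes differed. The fifth day lay below the fourth for Acta1 (-1.80), Acta2 (-1.39), Igfbp4 (-1.36), Flt1 (-1.19) and Ccn1 (-1.13). It lay above for Isg15 (0.95), Ldhb (0.89), Pif1 (0.83), Rab26os (0.71) and H1f2 (0.65). Ldhb and Pif1 had fallen on the fourth day and were level on the fifth, with means of -0.28 and -0.33 for Ldhb at 96 and 120 hr and -0.47 and -0.51 for Pif1. The interferon-induced Isg15 was level on the fourth day and rose on the fifth, from a mean of -0.80 to 0.26. The differences of Ccn1 and H1f2 were called in 3 and 2 of 12 alternatives and that of Rab26os in 5 of 12, while Isg15 kept its call in 8 of 11, Ldhb in 11 of 12 and Pif1 in 10 of 12.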

How the results depend on the processing

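The count of 279 called genes lay between 259 and 385 when the array scaling, the channel, the test or the source of the signals was changed. With replicate number as a block, which allows for pairing, it was 285 (235 rising, 50 falling), or 295 with the 6 arrays alone, and no call of the 86 named genes changed. With any single array of 72 or 96 hr dropped it lay between 232 and 371. Without background correction the counts were 93 called, 79 rising and 14 falling, and at 2-fold 22, 17 and 5, fewer by construction. The tests of the step against those of 24 to 48, 48 to 72 and 96 to 120 hr gave 306, 64 and 19 genes without background correction. Counts of the other daily steps in that setting are not given here. A regression on Cy5 bleaching gave 37 genes whose step differs from that of 48 to 72 hr and 9 from that of 96 to 120 hr, and without replicate 1 at both times, chosen after seeing the data, 119 and 16. These tests ranged from 107 to 184 and from 12 to 30 with single arrays dropped, and the test against 24 to 48 hr from 770 to 956. Cy3 alone gave 881 genes from 48 to 72 hr and 203 from 96 to 120 hr. The cause was not tested.

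Over the alternatives, the named genes had 1627 values, of which 1562 kept direction and side of the call, 60 lost a call, 23 of them without background correction, 5 gained one and 0 reversed. The call of Nanog ended without background correction, with Cy3 alone and without replicate 3 of 72 hr. A block by slide or scan date was not run, so an effect of either was not tested.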

Other observations

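Beyond the lists and the naming rule, some called genes were picked after their values were seen, so the families below were not fixed lists, and none was tested. Of 4 measured metallothionein genes, whose proteins bind zinc and copper, 2 fell and none rose from 72 to 96 hr. These are Mt1, by 0.67 (limma adjusted p 0.000154), and Mt2, by 0.75 (limma adjusted p 3.11e-05), and the changes of the 4 ran up to 0.11. Of 7 measured host genes of small nucleolar RNAs (Snhg), 3 fell and none rose, with changes from -0.76 to -0.12. These are Snhg8, which kept its call in 19 of 19 alternatives, Snhg5 (-0.64, called in 16) and Snhg3 (-0.65, called in 8), named through the tables of the study. The call of Snhg5 ended without replicate 1 of 72 hr (-0.58), with the authors' table and without background correction. That of Snhg3 ended without replicate 1 (-0.62), 2 (-0.69) or 3 (-0.65) of 72 hr, without replicate 2 (-0.55) or 3 (-0.65) of 96 hr, and in 6 other alternatives. Of 15 measured serpins of clade B, 4 rose and none fell, with changes from -0.13 to 1.06. Besides Serpinb9g and Serpinb9b these are Serpinb9c and Serpinb6b (both 0.59), called in 13 and 15 of 19 alternatives and at 0.24 and 0.19 without background correction. The call of Serpinb9c ended without replicate 1 of 72 hr (0.55) or replicate 2 (0.57) or 3 (0.54) of 96 hr, after scaling and with Cy3 alone. That of Serpinb6b ended without replicate 2 of 72 hr (0.50) or of 96 hr (0.56) and with Agilent's processed signals. Over all genes 1.35% were called.

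Single rising genes outside the lists are given as values. F2r, a receptor of thrombin, rose by 0.89, the vitamin D receptor gene Vdr by 0.84, the discoidin receptor gene Ddr1, named through the tables, by 0.78, and Tnfrsf1a, a receptor of tumour necrosis factor, by 0.77. Of 3 measured tensin genes, whose proteins sit at focal adhesions, Tns4 rose by 0.96 and Tns2 by 0.76. Emp1, an epithelial membrane protein, rose by 0.93, and Amot, angiomotin, which binds regulators of the Hippo pathway and is named through the tables, by 0.94. Without background correction the calls of Vdr, Tnfrsf1a, Tns4, Tns2 and Emp1 ended. No other alternative ended the call of a gene in this paragraph, nor any that of Mt1 or Mt2.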
